A study of Danio rerio with 10 samples.

Results

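The 7SK RNA (rn7sk) and the proteins that hold its ends, larp7 and mepce, are described here in zebrafish embryos that carry the fn10a mutation. The members were the records whose gene symbol was rn7sk, larp7 or mepce. There was 1 record for each, so that 3 of 14563 gene symbols were taken. They were chosen by their reads and RPKM in these same libraries, and their values are therefore given as a description, with no test.

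The series measured polyadenylated RNA of TL strain embryos (Danio rerio) at 36 hours post fertilization in 10 libraries. The 6 whole-embryo libraries, each of 30 embryos, fell into 3 groups of 2. Wild-type controls came from matings between wild-type TL fish. Siblings, which pooled fn10a+/- and +/+ embryos, and homozygous fn10a-/- mutants came from matings between fn10a heterozygotes, so that only the controls came from parents without the mutation. For the other 4 libraries, RNA of siblings or mutants was separated into a nuclear and a cytoplasmic fraction, and each fraction gave 1 library. Nothing in the labels ties replicates to different clutches, and p-values here measure no more than how far these libraries spread.

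7SK is a small nuclear RNA made by RNA polymerase III, and it carries no poly(A) tail of its own. Mepce caps its 5′ end and Larp7, a La-related protein, binds its 3′ end, and both keep the RNA stable in human cells. With Hexim proteins, the complex holds the kinase P-TEFb (Cdk9 with a cyclin T) inactive, and its release lets paused RNA polymerase II go on to elongate. In human and mouse cells Larp7 also binds U6 RNA and guides its methylation.

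On the danRer7 build, the rn7sk record (NR_029421) lay on the minus strand of chromosome 13 at 697630 to 697951 and was 322 bases long. The larp7 record (NM_199930) lay on the minus strand of chromosome 7 at 60051453 to 60065223, with a transcript of 1981 bases. The mepce record (NM_001128529) lay on the minus strand of chromosome 5 at 71671171 to 71687356, with a transcript of 3977 bases. None of the 3 overlapped another listed record on either strand. The nearest listed gene to rn7sk was polh, 1385 bases away and on the same strand.

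The reads on listed transcripts numbered 34060890 to 82752349 in the whole-embryo libraries and 7164408 to 19195327 in the fractions. Mutant nuclei were the shallowest library, and the listed transcripts held 19.2% of the authors' total there, against 33.5% in sibling nuclei, 41.7% in sibling cytoplasm and 41.8% in mutant cytoplasm. That share was 54.2% to 58.7% in replicate 1 of the whole embryos and 31.6% to 33.7% in replicate 2, and the replicate 1 files also have another header and another start convention than the others. The transcripts of eftud2, known from the study to be the gene of the mutation, stood at 11.3 and 3.60 RPKM (reads per kilobase of transcript, scaled to the library's total) in mutants and at 28.1 and 9.91 in siblings. All 6 neural markers, all 6 erythroid markers and all 5 measured markers each of muscle, epidermis and yolk syncytial layer had reads. The fractions were checked with 15 mRNAs of ribosomal proteins, an elongation factor, actins and gapdh. In siblings all 15 had a nucleus to cytoplasm log2 ratio under that of the median gene (list median -0.47, all genes -0.22). In mutants 9 of the 15 were under it and 6 above (-1.19 and -1.06), so that the check hardly set these mRNAs apart from other genes there. On listed reads the list median in mutants was -0.06, above the -0.32 of all genes. Of the noncoding RNAs looked up to check the nuclear side, only rn7sk and rpph1, the RNA of RNase P, were listed. Rpph1 had 0 reads in both nuclear libraries and 13 and 9 in the cytoplasm of siblings and mutants. The nuclear label was therefore not borne out from the nuclear side, and other noncoding records were not examined for this.

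In RPKM, rn7sk was highest in mutant nuclei. Since the libraries measured polyadenylated RNA and 7SK has no poly(A) tail of its own, all rn7sk values are those of molecules that entered such libraries. They do not measure the amount of 7SK in the cell. Nuclei held 30 reads in siblings and 537 in mutants, and cytoplasm held 44 and 116. The exact 95% Poisson intervals of these counts were 20.2 to 42.8, 492 to 584, 32.0 to 59.1 and 95.8 to 139, in the same order, and cover counting error only. In RPKM the levels were 2.21, 44.7, 3.22 and 7.85. Mutant nuclei stood apart from the other 3 libraries, and the intervals of sibling nuclei and sibling cytoplasm overlapped.

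**Figure D1:**
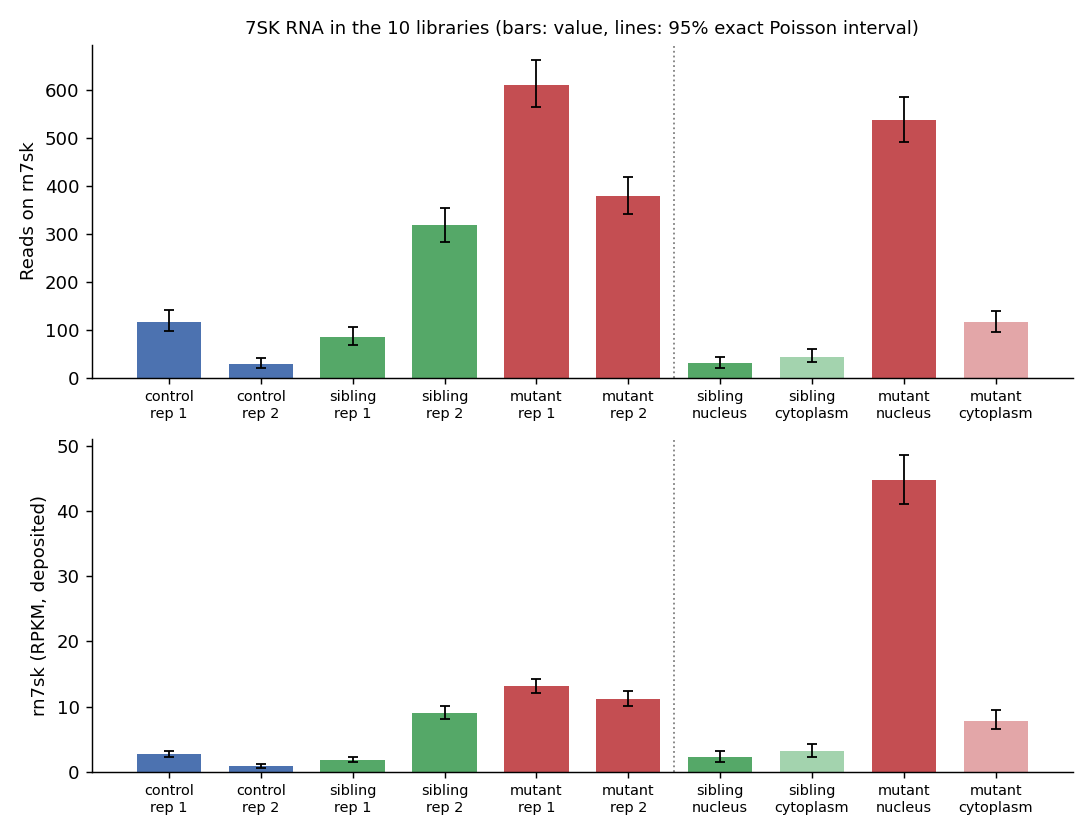
The plot gives the rn7sk reads and the deposited RPKM in each of the 10 libraries, with exact 95% Poisson intervals as thin lines on the bars. Mutant nuclei reach 44.7 RPKM, and sibling replicate 2 at 9.02 RPKM lies nearer to the mutant whole embryos than to sibling replicate 1.

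In nuclei, rn7sk was 20.3-fold higher in mutants than in siblings in RPKM (counting interval 14.0 to 30.3). In cytoplasm the same ratio was 2.44 (1.71 to 3.54). Within mutants the nucleus exceeded the cytoplasm 5.70-fold (4.65 to 7.02), whereas within siblings the ratio of nucleus to cytoplasm was 0.686 (0.416 to 1.12). With 1 library per fraction and genotype these ratios have no replicate check.

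Ratios of all genes serve as the background. On the scale of log2 of RPKM + 1, over 8631 genes, rn7sk differed by 3.83 between mutant and sibling nuclei, where the median gene differed by -0.84. This was the highest value of the 8631 genes, ahead of fos at 3.52 and gadd45aa at 3.04, and 0.116% of genes were at least 4-fold higher. The nucleus to cytoplasm ratio of rn7sk in mutants, 2.37, was also the highest of the 8631, ahead of pho at 2.12, where the median gene was at -1.06 and 0.0232% of genes were at least 4-fold higher. In sibling fractions rn7sk lay among most genes, at -0.40 with a median gene of -0.22, and 68.2% of genes had a higher ratio. In cytoplasm it was at 1.07 in mutants relative to siblings with a median gene of 0.02, and 119 genes, or 1.38%, were higher. Scaled to the listed reads in place of the authors' total, the rn7sk log2 difference between mutant and sibling nuclei was 4.63 and the median gene was at -0.38.

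**Figure D2:**
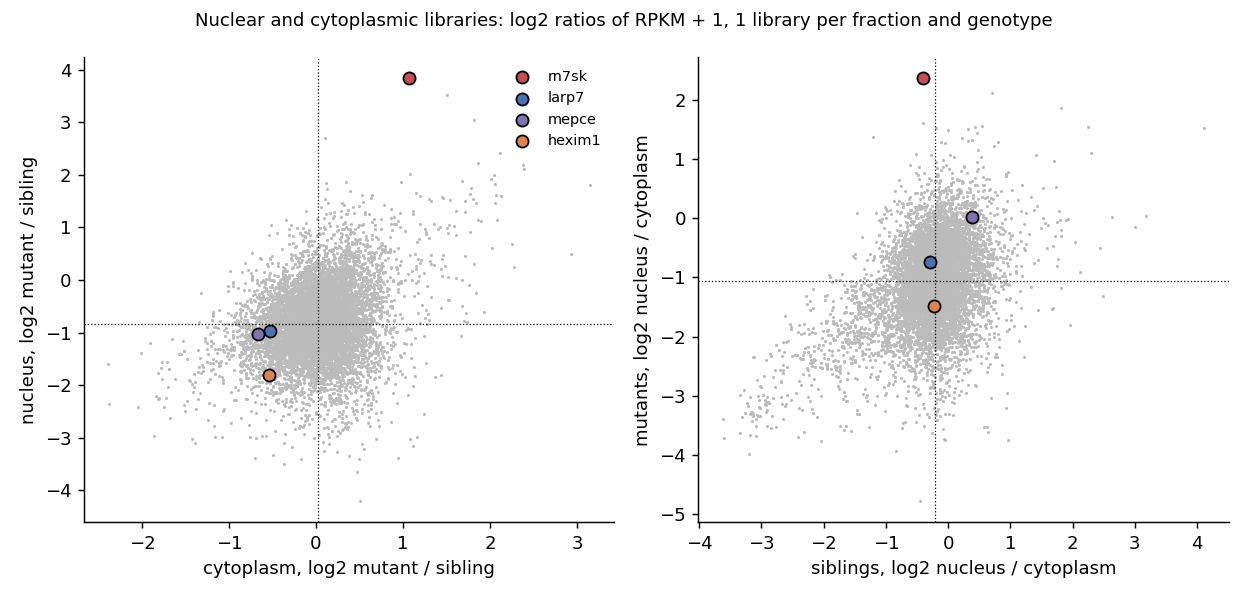
Each grey point is 1 of 8631 genes. The left panel sets the log2 ratio of mutants to siblings in nuclei against that in cytoplasm, and the right panel sets the nucleus to cytoplasm log2 ratio of mutants against that of siblings, both of RPKM + 1, with dotted lines at the medians. The rn7sk point lies above all others on both vertical axes, at 3.83 and 2.37, while larp7 and mepce lie inside the cloud.

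Among all noncoding records the place of rn7sk shifted too. It made up 9.67% of the reads on the 806 noncoding records in mutant nuclei and 0.239% in sibling nuclei, against 0.84% and 0.224% in the cytoplasm of mutants and siblings. By reads it was the 4th of these records in mutant nuclei and the 16th in sibling nuclei. The other small RNAs listed had too few reads to follow. The RNA of RNase P (rpph1) had 0 reads in the nuclei of either genotype, and 13 and 9 in the cytoplasm of siblings and mutants. In whole embryos (replicates 1 and 2) it had 21 and 0 reads in controls, 7 and 29 in siblings and 1 and 8 in mutants. The minor spliceosomal RNA rnu11 had 10 reads over all libraries. All 742 miRNA records together had 4 reads in sibling nuclei and 13 in mutant nuclei.

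In deposited RPKM the transcripts of larp7 were lower in both mutant fractions than in the sibling ones, though in nuclei this depended on the scaling. Nuclei held 538 reads in siblings and 205 in mutants, or 6.43 and 2.78 RPKM. Cytoplasm held 680 and 480 reads, or 8.09 and 5.28 RPKM. The ratio of mutants to siblings was 0.431 (0.366 to 0.508) in nuclei and 0.653 (0.580 to 0.735) in cytoplasm. In nuclei the log2 ratio of -0.98 lay close to the median gene at -0.84, and under trimmed-mean (TMM) scaling, which centres the typical gene, it was 0.02. In cytoplasm the log2 ratio of -0.53 lay under the median of 0.02, and 8.2% of genes were lower. The nucleus to cytoplasm log2 ratio of larp7 was -0.29 in siblings and -0.73 in mutants, and scaled to the listed reads these became 0.01 and 0.20.

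For mepce, nuclei held 477 reads in siblings and 132 in mutants, and cytoplasm held 328 and 155. These are 2.84, 0.890, 1.94 and 0.850 RPKM, so that in RPKM both mutant fractions were under both sibling fractions. On listed reads mutant nuclei, at 19.6 CPM, were level with sibling cytoplasm at 19.5. The ratio of mutants to siblings was 0.313 (0.256 to 0.381) in nuclei and 0.437 (0.359 to 0.531) in cytoplasm. On the log2 scale of RPKM + 1 these were -1.02 and -0.67, or -0.19 and -0.69 relative to the median gene, and in cytoplasm 4.73% of genes were lower. In sibling fractions mepce leaned to the nucleus, with a log2 ratio of 0.38 that 7.46% of genes exceeded. In mutants the ratio was 0.03, with a median gene of -1.06, and 4.76% of genes exceeded it. Relative to the median gene the ratio was 0.60 in siblings and 1.09 in mutants, so the lean was not weaker in mutants on that footing.

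Set side by side per length, the order of the 3 members differed between the nuclei. In sibling nuclei larp7 was highest in RPKM, and mepce at 2.84 and rn7sk at 2.21 had overlapping counting intervals. In mutant nuclei rn7sk was highest at 44.7 RPKM, followed by larp7 at 2.78 and mepce at 0.890. In mutant cytoplasm rn7sk at 7.85 RPKM was again above larp7 at 5.28, whereas in sibling cytoplasm larp7 at 8.09 was above rn7sk at 3.22. Since the library preparation selects poly(A) RNA, rn7sk levels are those of molecules that entered such libraries.

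In whole embryos rn7sk was higher in mutants than in wild-type controls in both libraries, and the siblings did not form a group. It had 117 and 29 reads in controls (replicates 1 and 2), 85 and 318 in siblings and 611 and 379 in mutants. In RPKM these were 2.67 and 0.830, 1.87 and 9.02, and 13.2 and 11.1, with group values of 1.75 ± 1.30, 5.45 ± 5.05 and 12.2 ± 1.44 (SD, n = 2). Sibling replicate 1 lay with the controls and sibling replicate 2 with the mutants.

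Scaled with TMM to counts per fixed library total (CPM), rn7sk stood at 1.56 and 0.923 CPM in controls, 1.03 and 9.97 in siblings and 7.91 and 11.9 in mutants. Mutants and controls did not overlap, with mutants above, as for 14.4% of the 10147 genes tested. Mutants were 5.07-fold above controls in replicate 1 and 12.9-fold in replicate 2. Mutants and siblings overlapped on this scale, with mutants 7.68-fold higher in replicate 1 and 1.19-fold in replicate 2. In deposited RPKM the same libraries did not overlap, as for 6.07% of genes with mutants higher. In replicate 1, 0.138% of genes had a log2 difference between mutants and siblings as high as that of rn7sk, and in replicate 2 26.8% did.

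Sibling replicate 2 decided that comparison. It was 9.68-fold above sibling replicate 1 for rn7sk, and 0.237% of genes had a larger ratio between these 2 libraries, whereas the replicates differed 1.50-fold in mutants and 0.591-fold in controls. Without sibling replicate 1 the mean log2 difference between mutants and siblings was -0.04, and without sibling replicate 2 it was 3.24. Against controls, siblings differed by -0.60 in replicate 1 and by 3.43 in replicate 2 on the log2 scale. The RNA of RNase P (rpph1) was also higher in sibling replicate 2, at 0.866 RPKM (29 reads) beside 0.162 RPKM (7 reads) in replicate 1. In controls rpph1 had 21 and 0 reads in replicates 1 and 2. In mutants it had 1 and 8 reads and, unlike rn7sk, was under siblings in both replicates. These rpph1 counts are small. What sets sibling replicate 2 apart was not tested.

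**Figure D3:**
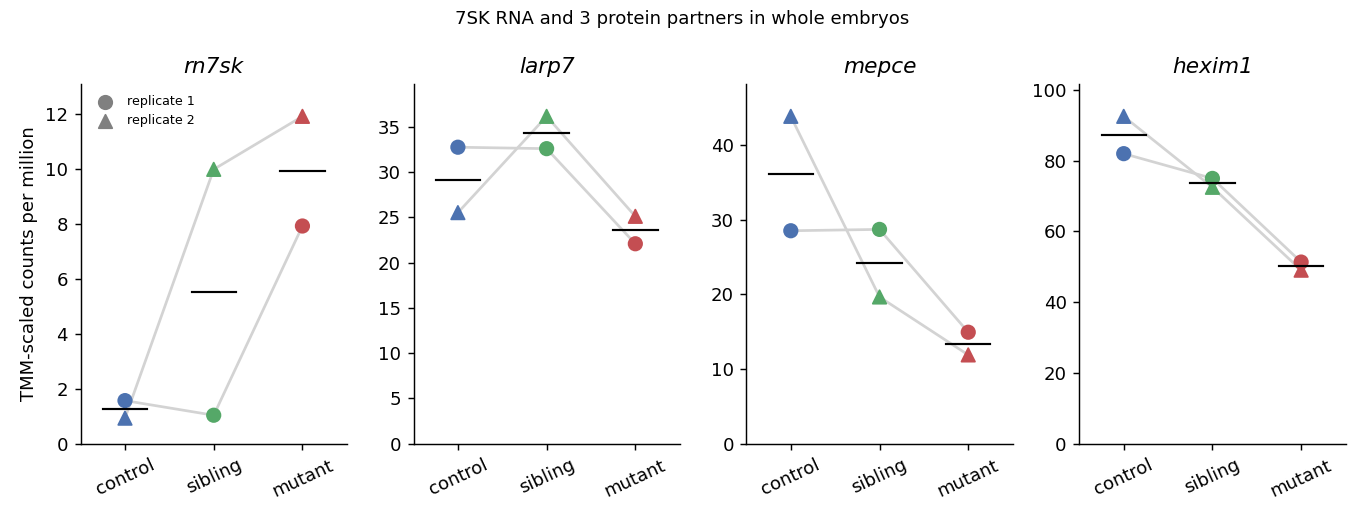
The panels give TMM-scaled CPM in the 6 whole-embryo libraries for rn7sk, larp7 and mepce, and for hexim1, the P-TEFb inhibitor of the complex. Circles are replicate 1, triangles replicate 2, grey lines join a replicate number and black bars mark group means. Sibling replicate 2 of rn7sk stands at 9.97 CPM beside 1.03 in replicate 1, and both mutant libraries of larp7 and mepce lie under both sibling libraries.

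For larp7 the whole-embryo difference was small and near that of many genes. It had 2454 and 802 reads in controls, 2690 and 1153 in siblings and 1705 and 800 in mutants. In RPKM these were 9.10 and 3.73, 9.64 and 5.32, and 5.98 and 3.83, or 6.42 ± 3.80, 7.48 ± 3.06 and 4.90 ± 1.53 by group (SD, n = 2). TMM-scaled levels were 32.8 and 25.5 CPM in controls, 32.6 and 36.2 in siblings and 22.1 and 25.1 in mutants. Both mutant libraries were under both sibling libraries, as for 17.1% of genes, with log2 differences of -0.56 and -0.53 in the replicates. They were also under both control libraries, as for 16% of genes, though by only -0.02 on the log2 scale in replicate 2. In deposited RPKM the mutant libraries overlapped both other groups.

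For mepce the mutants were lower by more. It had 2135 and 1377 reads in controls, 2367 and 626 in siblings and 1151 and 378 in mutants. In RPKM these were 3.94 and 3.19, 4.23 and 1.44, and 2.01 and 0.900, or 3.57 ± 0.532, 2.83 ± 1.97 and 1.46 ± 0.786 by group (SD, n = 2). TMM-scaled levels were 28.5 and 43.8 CPM in controls, 28.7 and 19.6 in siblings and 14.9 and 11.9 in mutants. On this scale both mutant libraries were under both sibling libraries, as for 17.1% of genes, and under both control libraries, as for 16% of genes. In deposited RPKM mutants and siblings overlapped. The log2 difference from siblings was -0.94 and -0.73, and 2.7% and 7.61% of genes were as low in the replicates. The log2 difference from controls was -0.93 and -1.88. Siblings were level with controls in replicate 1 (0.01) and under them in replicate 2 (-1.16).

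The summed RPKM of the 6 neural markers moved in the same direction as larp7 and mepce, with none at 0. It was 365 and 133 in controls, 330 and 111 in siblings and 218 and 81.6 in mutants. The sum of the 6 erythroid markers was also lower in mutants, with none at 0. It was 3897 and 5341 in mutants, 8178 and 11030 in siblings and 5009 and 12390 in controls. Not every member followed these sums in TMM-scaled log2 differences. The globin genes hbae1, hbae3, hbbe1.1 and hbbe2 were under siblings in both replicates, whereas alas2 was at -0.07 and 0.04. Against controls gata1a was higher (0.28 and 0.59). The neural gfap was under siblings (-0.46 and -0.22) but not under controls (0.08 and 0.02), where the other neural markers were lower. Neurog1 was level with siblings in replicate 1 (-0.00) and under them in replicate 2 (-0.53). The sums of muscle and yolk syncytial layer markers were not under those of both other groups in both replicates. The epidermis sum was higher in mutants, at 7247 and 6639, than in siblings (6389 and 5360) and controls (5644 and 5302). Most of that sum was krt4, at 6226 and 5961 RPKM in mutants. In log2 differences krt4, krt8 and cldne were above both other groups in both replicates. Krt5 and tp63 were under siblings in replicate 2 (-0.16 and -0.06). Against controls krt5 was lower in both replicates (-0.11 and -0.26), and tp63 was at 0.02 and 0.61. The part of these tissues in the levels of larp7 and mepce was not tested. In whole embryos, fewer cells of a type and less RNA per cell cannot be told apart.

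The fit across all 10147 genes, edgeR's quasi-likelihood test with Benjamini-Hochberg adjustment, set these members among the rest. Without a replicate term it called 0 genes (0%) between mutants and siblings, with 534 at an unadjusted p under 0.05, and DESeq2 called 149. Between mutants and controls it called 0, with 667 at an unadjusted p under 0.05, and DESeq2 called 194. Where no gene differs, a share of 0.05 of the genes tested is expected under that unadjusted p. Such counts alone therefore mark no gene as different. With the replicate number as a term, the same test called 177 genes (1.74%), 118 higher and 59 lower, against siblings (126 and 132 when scaled by the authors' totals). Against controls it called 353 (3.48%), 194 higher (1.91%) and 159 lower. None of the 3 members was among the genes called with the replicate term, and without it edgeR called no gene at all. This is no test of the members, which were chosen by values of these same libraries. The gene lists that follow use the fit with the replicate term, and without that term it called 0 of their 83 tested genes in either comparison, with 12 against siblings and 16 against controls at an unadjusted p under 0.05, and DESeq2 called 6 and 7. Both comparisons use the same mutant libraries. The lists were also drawn up with calls of some of their genes known, so their counts beside the share of all genes are no independent evidence.

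Of 5 other genes tested of the 7SK complex and P-TEFb, 1 rose against siblings (background 1.16% of all genes higher). Against controls 1 rose and 1 fell (background 1.91% higher and 1.57% lower). The gene that rose was ccnt2a, a cyclin T, with mean levels of 6.19 ± 3.89 RPKM in siblings and 13.8 ± 7.18 in mutants (SD, n = 2). It rose by 1.25 ± 0.12 on the log2 scale (SE, adjusted p = 0.0183) against siblings and by 1.14 ± 0.12 (adjusted p = 0.0192) against controls. Its symbol has 2 listed records, of which the one with most reads was used, and reads may be divided between them. The median log2 difference of the 5 was 0.24 against siblings and 0.13 against controls, and the medians of all genes tested were 0.00 and -0.01.

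Hexim1, the inhibitor that 7SK presents to P-TEFb, stood at 33.1 and 19.6 RPKM in controls, 32.2 and 15.5 in siblings and 20.2 and 10.8 in mutants. Within each replicate number the mutants were lowest. It fell by 0.80 ± 0.13 on the log2 scale against controls (adjusted p = 0.0449, background 1.57% of genes lower), and its difference from siblings was -0.55 ± 0.13 (adjusted p = 0.0987). In nuclei hexim1 was at 12.6 RPKM in siblings and 2.91 in mutants, a log2 ratio of -1.80 that 6.59% of genes were under. The median gene was at -0.84 there. The size depended on the scaling, with hexim1 at -1.29 on listed reads (median gene -0.38) and -0.86 under TMM (median gene 0.04). The kinase cdk9 differed from siblings by 0.24 ± 0.20 (adjusted p = 0.507), and the cyclins ccnt1 by 0.58 ± 0.16 (adjusted p = 0.128) and ccnt2b by -0.54 ± 0.27 (adjusted p = 0.303).

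Of 19 tested genes for proteins that bind 7SK in other complexes or free P-TEFb from it, 0 passed against siblings and 2 against controls, where 1.74% and 3.48% of all genes passed. The median log2 difference from siblings was 0.04. Against controls hnrnpa0a, an hnRNP protein, rose by 0.81 ± 0.12 (adjusted p = 0.0398) and brd2a, a bromodomain protein, fell by 1.55 ± 0.23 (adjusted p = 0.0391), with a list median of -0.14. Brd2a also has 2 listed records. Of the other genes tested of the super elongation complex 0 of 6 passed in either comparison, and of pausing and elongation factors 0 of 16. Their medians were 0.16 and 0.00 against siblings and 0.17 and 0.09 against controls. For example, the elongation factor ell2 differed from siblings by 0.19 ± 0.15 (adjusted p = 0.494) and the FACT subunit supt16h by -0.29 ± 0.15 (adjusted p = 0.303).

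**Figure D4:**
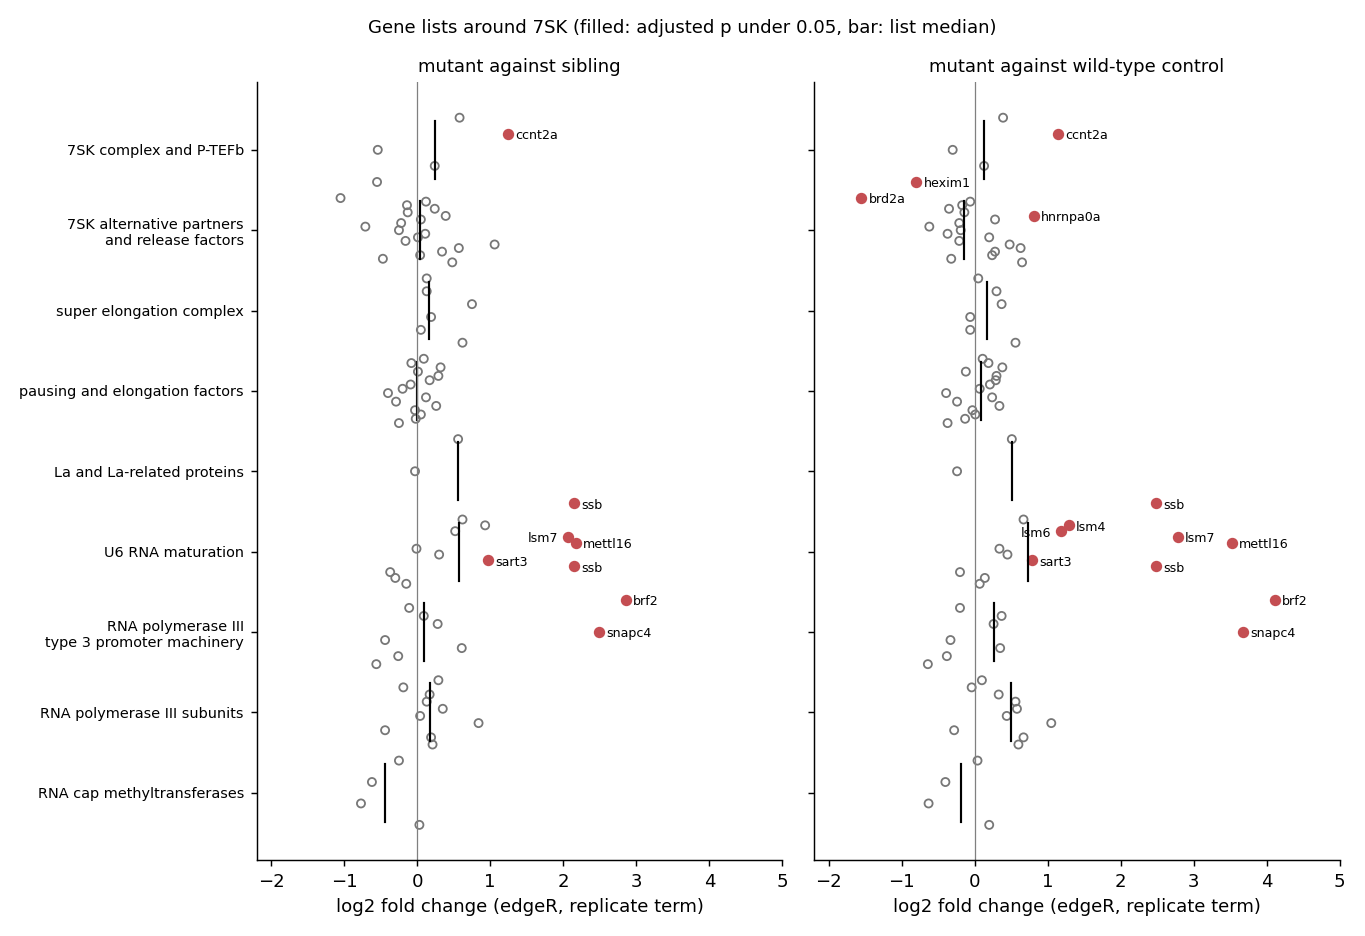
Fitted log2 fold changes of the 83 tested genes of 9 lists around 7SK, members left out, against siblings (left) and wild-type controls (right). Filled points passed an adjusted p of 0.05 in the edgeR fit with the replicate term and bars mark list medians. The points farthest to the right are brf2 and snapc4, and most other genes lie near 0.

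Of the 3 tested La and La-related genes 1 rose in both comparisons (1.16% and 1.91% of all genes). This was the La protein gene ssb, whose protein binds the 3′ ends of new RNA polymerase III transcripts. It stood at 29.6 and 15.5 RPKM in controls, 36.7 and 21.3 in siblings and 127 and 113 in mutants, with mutants above all other libraries. It rose by 2.15 ± 0.19 on the log2 scale against siblings (adjusted p = 0.0162) and by 2.48 ± 0.20 against controls (adjusted p = 0.00874). Of 12 genes of U6 maturation, which again include ssb, 4 rose against siblings and 6 against controls, and none fell, where 1.16% and 1.91% of all genes were called higher. Since calls of some list genes were known beforehand, this excess is no independent evidence. The U6-binding subunit lsm7 rose by 2.06 ± 0.16 (adjusted p = 0.0122) and 2.78 ± 0.16 (adjusted p = 0.00596). The U6 methyltransferase mettl16 rose by 2.17 ± 0.23 (adjusted p = 0.0228) and 3.52 ± 0.24 (adjusted p = 0.00754), and the recycling factor sart3 by 0.97 ± 0.12 (adjusted p = 0.0322) and 0.79 ± 0.12 (adjusted p = 0.0382). The subunits lsm4 and lsm6 passed against controls only, at 1.29 ± 0.18 (adjusted p = 0.0361) and 1.18 ± 0.17 (adjusted p = 0.0364), and whether the comparisons differ was not tested. The list medians were 0.57 and 0.73.

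Genes of the promoter machinery that RNA polymerase III uses on 7SK and U6 genes included the farthest differences of all lists. Of 9 tested, 2 rose in both comparisons (1.16% and 1.91% of all genes). Brf2, the TFIIB-related factor of these promoters, averaged 0.881 ± 0.598 RPKM in controls, 2.12 ± 1.17 in siblings and 14.2 ± 5.30 in mutants. It rose by 2.86 ± 0.20 on the log2 scale against siblings (adjusted p = 0.0122) and by 4.11 ± 0.22 against controls (adjusted p = 0.00596). Snapc4, a subunit of the complex that binds the proximal element of these promoters, averaged 1.15 ± 0.781, 2.93 ± 2.44 and 15.7 ± 12.3 RPKM. It rose by 2.49 ± 0.16 (adjusted p = 0.0122) and 3.68 ± 0.16 (adjusted p = 0.00596). The list medians, 0.09 and 0.26, did not follow these 2 genes.

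In the fractions brf2 was higher in mutants by 1.60 in nuclei and 2.13 in cytoplasm, and snapc4 by 1.58 and 1.45, on the log2 scale of RPKM + 1. For ssb the log2 ratio was 0.67 in nuclei and 2.25 in cytoplasm. The median gene was at -0.84 in nuclei and 0.02 in cytoplasm, so nuclear and cytoplasmic ratios have unlike backgrounds. Of the 10 tested subunits of RNA polymerase III itself, 0 passed in either comparison, with medians of 0.18 and 0.50. Of 4 genes of mRNA cap addition and methylation, the nearest activity to that of Mepce, 0 passed, with medians of -0.43 and -0.18. Since 1.74% and 3.48% of all genes passed, 0 in lists this small is near the share of all genes. Among these, polr3k differed from siblings by 0.21 ± 0.16 (adjusted p = 0.457) and the cap methyltransferase rnmt by 0.03 ± 0.15 (adjusted p = 0.914). Rnmt was the only 1 of the 4 cap genes above 0 against siblings, and the other 3 were below 0.

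Over the 9 lists 7 of 83 genes passed against siblings, 7 higher and 0 lower, and 12 against controls, 10 higher and 2 lower. Of all genes 1.16% were called higher and 0.581% lower against siblings, and 1.91% and 1.57% against controls. The lists were drawn up with calls of some of their genes known. Whether a gene passed against siblings depended on single libraries, while the fitted differences stayed close. With the replicate term, 0 of the lists' genes passed against siblings without sibling replicate 1, without sibling replicate 2 or without mutant replicate 2. Over the 12 settings with that term the log2 difference from siblings was 2.62 to 3.06 for brf2, 2.38 to 2.58 for snapc4, 1.94 to 2.36 for mettl16, 1.85 to 2.42 for ssb, 1.92 to 2.21 for lsm7 and 0.88 to 1.06 for sart3. In these settings brf2 and snapc4 passed against controls in all 12 (adjusted p up to 0.0495), and lsm7, mettl16 and ssb in 11 (adjusted p up to 0.0509). Hexim1 passed against controls in 8 of these 12 settings, with adjusted p between 0.000125 and 0.292. Over the 12 settings ccnt2a passed against siblings in 8, with adjusted p between 4.34e-13 and 0.391. Their log2 differences in these comparisons were -0.91 to -0.67 for hexim1 and 1.17 to 1.31 for ccnt2a.

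The genes most like each member over all 10 libraries were found by Pearson's r of log2(TMM-scaled CPM + 1). This is a description only, since the libraries differ in depth, fraction and preparation as well as in genotype. For rn7sk these were slc16a3 at 0.957, ptp4a2b at 0.942, ssna1 at 0.932, vrk2 at 0.929 and rnd3a at 0.926. On this scale rn7sk was at 116 CPM in mutant nuclei and at most 10.8 elsewhere. None of these genes had a nuclear rise of that size in RPKM. From sibling to mutant nuclei ptp4a2b went from 15.2 to 15.8 and rnd3a from 8.85 to 8.91. Slc16a3 went from 1.94 to 2.39, ssna1 from 2.77 to 4.91 and vrk2 from 0.794 to 2.06. RPKM is not the scale of r, on which every gene stands higher in mutant nuclei relative to sibling nuclei than in RPKM. For example, larp7 went from 6.43 to 2.78 in RPKM but from 40.9 to 44.3 in TMM-scaled CPM. The rises of the genes most like rn7sk are therefore larger on the scale of r than these RPKM values. The genes most like larp7 were znf410 at 0.977, mcm7 at 0.971, pak1ip1 and ndnl2 at 0.965 each, and gabpa at 0.962. For mepce they were pank2 and unc119b at 0.940 each, arl13b at 0.934, ptf1a at 0.928 and scrt2 at 0.922. The members were not close to each other. The r was 0.268 between rn7sk and larp7, -0.280 between rn7sk and mepce and 0.396 between larp7 and mepce.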

How the data were processed

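Per the submitters' processing notes, the authors used TopHat2 2.0.8 and danRer7. The counting tool, and whether it used strand, are not given in the sources used here. Whole-embryo libraries were strand-specific (dUTP, Trizol) and fraction libraries unstranded (PARIS kit), per the labels. The authors deposited, per the file headers, a read count, RPKM and transcript length for 15865 RefSeq records per library. The deposited counts are not normalized. The deposited RPKM equals the count per kilobase, scaled by 1 total per library that exceeds the listed reads. No column of another sample was found in the files (0 unused).

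For each of 14563 symbols the record with most reads was kept, and genes averaging at least 1 RPKM in the 6 whole-embryo libraries (10147) were tested with edgeR 4.0.16 in R 4.3.3 (glmQLFit, TMM scaling, Benjamini-Hochberg threshold 0.05), all 6 in 1 model. Standard errors follow from each fold change and its F statistic. DESeq2 1.42.0 is an alternative. Scripts were tested on simulated data. Same-numbered libraries deviated together from their group means (correlations over genes 0.77, 0.72 and 0.87), so the replicate numbers, which also coincide with the file format, pair the libraries. The residual degrees of freedom are 2 in the paired fit and 3 in the other. Fraction ratios used log2(RPKM + 1) for 8631 genes, which understates the differences of low genes.

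The members and lists were chosen with earlier results of these data known, including calls of some list genes, so the lists are no independent evidence. Named genes were all members, all of the 7SK complex, list genes past the threshold (up to 6 per list) or else from the 2 most abundant, and the 5 most alike per member. Alternatives added after seeing the data were DESeq2, other scalings or no filter with the replicate term, and the authors' totals. Sequences are not given here.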

Additional observations from a re-analysis of the deposited data

Results flagged for a closer look

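The nucleus to cytoplasm log2 ratio of rn7sk, of RPKM + 1, was 2.37 in mutants and -0.40 in siblings. The values have opposite signs, with 1 library per fraction and genotype, and the difference between the genotypes was not tested. The sibling ratio rests on 30 and 44 reads, and the counting interval of its RPKM ratio, 0.416 to 1.12, includes 1, so that siblings show no direction of their own. The median gene was at -1.06 in mutants and -0.22 in siblings.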

How the results depend on the processing

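Counts of genes called depended on the replicate block, which pairs the libraries, on the tool and on single libraries. With the replicate block edgeR called 177 genes against siblings and 353 against controls, where it called 0 without it, and 0 between siblings and controls in both fits. DESeq2 called 149, 194 and 12 in these 3 comparisons, and 1198, 1721 and 98 with the replicate block. With the block, the authors' totals gave 258 and 419, RLE scaling 184 and 361, no scaling beyond listed reads 189 and 363, and no filter 214 and 392. Without the block, no scaling gave 1 against siblings. With the authors' totals and the block 126 of the 258 were higher and 132 lower, against 118 and 59 of the 177 under TMM.

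Of the 83 list genes, the block called 7 against siblings and 12 against controls. With the block, the authors' totals, RLE scaling, no scaling and no filter called 7 each against siblings, and 12, 12, 11 and 12 against controls. DESeq2 called 6 and 7, and with the block 20 and 22, with 4 between siblings and controls.

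Leaving out each library in turn, fits without the block called 0 genes and 0 list genes in all 3 comparisons. With the block the counts ran from 0 to 2231 against siblings (0 without mutant replicate 2 or either sibling library, 83 without mutant replicate 1, 2176 and 2231 without a control library). They ran from 7 to 2381 against controls (7 without mutant replicate 2, 103 without mutant replicate 1, 52 and 51 without a sibling library, 1738 and 2381 without a control library) and from 0 to 411 between siblings and controls (411 and 133 without a control library). List genes called ran from 0 to 30 (5 without mutant replicate 1), from 2 to 29 (5 without a sibling library or mutant replicate 1, 23 without control replicate 2) and from 0 to 7. The lone library left in a group is then assumed to vary like the others. Leaving out 1 library, or both libraries of a replicate number, the mean log2 difference of rn7sk ran from -0.04 to 3.24 against siblings, 2.34 to 3.69 against controls and -0.60 to 3.43 between siblings and controls. For larp7 the ranges were -0.64 to -0.45, -0.57 to -0.02 and -0.01 to 0.50, and for mepce -1.11 to -0.56, -1.88 to -0.93 and -1.16 to 0.01. In deposited RPKM larp7 differed from siblings by -0.58.

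In the fractions, scaling to listed reads and TMM gave log2 ratios of 3.45 and 3.84 for rn7sk in mutant nucleus to cytoplasm. For mutant to sibling nuclei rn7sk was at 4.28 (pseudocount 0.1), 4.63 (listed reads) and 5.02 (TMM). The same 3 settings gave -1.18, -0.41 and 0.02 for larp7 and -1.57, -0.85 and -0.42 for mepce. For mepce in cytoplasm they gave -1.11, -1.11 and -1.12. For nucleus to cytoplasm, listed reads and TMM gave larp7 0.01 and -0.06 in siblings and 0.20 and 0.59 in mutants, and mepce 0.86 and 0.79 in siblings and 1.12 and 1.49 in mutants. The cause of these shifts was not tested.

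The lowest rn7sk counts, of 29 to 44 reads, limit its ratios, and with 2 libraries per group or 1 per fraction no result has a check beyond these libraries.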
